A study of Homo sapiens with 18 samples.

Results

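The genes described here are 10 genes with less RNA after NFYA was knocked down in LNCaP cells: VEGFB, SMARCA5, MANEA, LRRN1, ADGRG6, GPC6, PTPRR, KCNQ1, TTC9 and ACTRT3. They were chosen by name, for falls with NFYA siRNA (siNFYA) in vehicle or in R1881, out of 34912 genes in the deposited tables. Their 48 annotated transcripts, of 164776 in all, were used to look at isoforms. LNCaP is an established line of androgen-responsive prostate cancer cells, and R1881 is a synthetic androgen. Cells received control siRNA, KLF5 siRNA (siKLF5) or siNFYA, were kept for 48 h in medium with 5% charcoal-stripped serum to remove steroids, and were then given 10 nM R1881 or its vehicle, 96% ethanol, for 24 h. Each of the 6 groups had 3 samples by its labels. The siKLF5 vehicle replicate 1 was not analysed here, so that group had 2 libraries and the total was 17. All groups are the same cell line, so knockdown was partial loss of a transcript in 1 line and not a deletion.

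NF-Y is a trimer of NFYA, NFYB and NFYC that binds the CCAAT box, a short element found near the start of many genes, and NFYA is the subunit that reads the box. KLF5 is a zinc finger transcription factor that binds GC-rich elements. The androgen receptor, once bound to R1881, raises some genes of prostate epithelium and lowers others. The 10 genes do unrelated work in the cell. VEGFB is a secreted growth factor that binds VEGFR1 and neuropilin 1. SMARCA5 (SNF2H) is the ATPase of the ISWI nucleosome-spacing complexes. MANEA is an endomannosidase of the Golgi that trims glucosylated mannose from N-glycans. LRRN1, ADGRG6 (GPR126) and PTPRR are membrane proteins, respectively with leucine-rich repeats, of the adhesion G protein-coupled receptor family, and a tyrosine phosphatase that acts on MAP kinases. GPC6 is a glypican, a heparan sulfate proteoglycan of the cell surface. KCNQ1 is a voltage-gated potassium channel. TTC9 is a tetratricopeptide repeat protein, and ACTRT3 is an actin-related protein best known from testis.

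The promoter sequences come first because NF-Y reads its target by sequence. RefSeq promoter windows of GRCh38.p14, from 250 bases before to 50 bases after a gene's start, were at hand for 9 of the 10 genes, KCNQ1 being the exception, in 11 windows. The letters CCAAT, or ATTGG on the other strand, stood in the windows of 3 of these 9 genes, against 34.6% of all 35116 promoters. In LRRN1 the box began 64 bases before the RefSeq start, in ACTRT3 183 bases and in MANEA 200 bases before it. Longer forms, CCAATCA, CCAATCAG and CCAATGG on either strand, which overlap the shorter word, were in none of the 9 and in 6.95%, 3.97% and 5.25% of all promoters. The stretches shown, 5′ to 3′ on the gene's strand with the CCAAT letters in capitals, are the LRRN1 and MANEA upstream regions, 25 bases around the ACTRT3 box, and, as a contrast, the VEGFB upstream region, which had no such letters. They span chr3:3799181-3799430 (plus strand), chr6:95577285-95577534 (plus), chr3:169769730-169769754 (minus) and chr11:64234334-64234537 (plus) of GRCh38.p14.
LRRN1: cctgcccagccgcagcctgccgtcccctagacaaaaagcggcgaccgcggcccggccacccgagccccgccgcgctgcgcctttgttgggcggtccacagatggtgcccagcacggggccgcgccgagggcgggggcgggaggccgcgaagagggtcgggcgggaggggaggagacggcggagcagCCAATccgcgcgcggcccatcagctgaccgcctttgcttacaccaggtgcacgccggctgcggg
MANEA: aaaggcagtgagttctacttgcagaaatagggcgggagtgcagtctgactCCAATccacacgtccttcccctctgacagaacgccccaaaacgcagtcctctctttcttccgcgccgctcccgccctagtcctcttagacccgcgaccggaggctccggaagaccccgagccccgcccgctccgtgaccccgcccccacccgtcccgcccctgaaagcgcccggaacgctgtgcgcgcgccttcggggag
ACTRT3: ttggggtggcCCAATtcctgcgaga
VEGFB: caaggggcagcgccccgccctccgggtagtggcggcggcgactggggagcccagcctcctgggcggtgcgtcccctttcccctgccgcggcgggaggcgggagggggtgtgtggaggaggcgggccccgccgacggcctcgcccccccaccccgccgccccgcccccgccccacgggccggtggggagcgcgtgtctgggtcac

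A match of 5 letters is a description and not a binding site, and no binding was measured here. The windows follow the RefSeq start. The outermost GENCODE start lay 334 bases further upstream for ACTRT3, 239 for SMARCA5, 153 for ADGRG6, 129 for TTC9 and 46 for VEGFB. For the 3 PTPRR windows it lay 131923, 166084 and 166235 bases further upstream. The windows of ACTRT3 and PTPRR thus lie wholly inside those genes' GENCODE spans. For 5 of the 10 genes GENCODE has a start on the opposite strand within 1000 bases: VEGFB (186 bases away), MANEA (93), ACTRT3 (246), GPC6 (475) and TTC9 (489 and 583). The levels of those opposite-strand genes were not analysed here. The VEGFB window was 84.7% G and C, against a median of 58.7% over all promoters.

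The 17 libraries held 4416653 to 6872421 estimated counts. Values are given as counts per 1000000 (CPM), scaled over all 17 libraries by TMM, a factor computed from the bulk of the genes. All 9 luminal prostate markers were present. Their summed level in vehicle was 2647 to 2660 TPM with control siRNA. Both siKLF5 (2488 to 2579) and siNFYA (2431 to 2467) lay below that without overlap. In R1881 the sum was 13570 to 13905 TPM with control siRNA. There siKLF5 was lower without overlap (12470 to 12652), and siNFYA overlapped control (13684 to 14585). KRT5 was at 0 in every library and no basal marker (0 of 3) reached 10 counts. Of the stromal and the blood and endothelial markers, 2 of 4 and 1 of 4 reached 10 counts, and their summed levels overlapped between control and siNFYA libraries. The mitochondrial share of counts was 1.33 to 2.07% with control siRNA, 2.20 to 2.96% with siKLF5 and 2.54 to 3.00% with siNFYA. The part of this difference in the results was not tested.

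The knockdown was seen in the NFYA transcript itself. NFYA stood at 71.0 ± 2.52 CPM (SD, n = 3) in control vehicle and 46.0 ± 2.02 (n = 3) in siNFYA vehicle, a log2 change of -0.62 ± 0.06 (SE, edgeR quasi-likelihood adjusted p = 4.06e-07). In R1881 it stood at 87.1 ± 2.64 and 56.2 ± 2.61 CPM, again -0.62 ± 0.06 (adjusted p = 2.37e-07). About 65.2% and 65.0% of the control level was left. NFYB and NFYC, the histone-fold partners, did not pass in either treatment. Of the 3 subunits with NFYA included, 1 in vehicle and 2 in R1881 had an unadjusted edgeR p under 0.05. Over all genes 26.7% and 19.0% did. KLF5 stood at 0.929 and 3.02 CPM in the siKLF5 vehicle libraries, a mean of 1.97 ± 1.48 (n = 2), against 4.16 ± 0.835 in control vehicle, which did not pass (log2 -1.08, adjusted p = 0.149), and at 12.8 ± 2.10 against 28.4 ± 3.36 CPM in R1881, which did (-1.15, adjusted p = 0.000228). The vehicle value was -2.14 without siKLF5 vehicle replicate 3 and -0.46 without siKLF5 vehicle replicate 2. With no filter on low counts it was -1.09, which passed. On log2 (TPM + 0.5) the R1881 value was -0.17 ± 0.62 and did not pass (limma adjusted p = 0.942). In TPM the siKLF5 R1881 libraries read 5.44, 40.1 and 6.74 for KLF5, against 11.8, 13.1 and 14.3 in control R1881.

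With siNFYA against control siRNA, 7 of the 10 genes passed an adjusted p under 0.05 in the lower direction in vehicle, where 6.79% of the 12601 genes tested did, and 9 of 10 in R1881, where 3.33% did. These are the differences that chose the genes, so they are given as a description. All siNFYA libraries lay below all control libraries in 8 of the 10 in vehicle and 9 of 10 in R1881, as they did in 16.8% and 14.9% of all genes. All 10 genes had passed the filter on low counts. The median log2 change of the 10 was -0.49 in vehicle and -0.84 in R1881, against -0.0014 and -0.016 over all genes. They fall into 3 patterns by treatment: similar in both (VEGFB, SMARCA5, LRRN1), larger in vehicle (MANEA, ADGRG6, ACTRT3), and larger in R1881 (GPC6, PTPRR, KCNQ1, TTC9). This sorting is by counts and depends on the unit. On log2 (TPM + 0.5), where TPM is transcripts per 1000000 after division by transcript length, GPC6 stood at -0.79 in vehicle and -0.76 in R1881, and SMARCA5 at -0.35 and -0.69. No test of the difference between treatments is given, since the same libraries chose the genes. Because the RNA came from whole cultures, fewer cells making a transcript and less transcript per cell cannot be told apart.

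**Figure D1:**
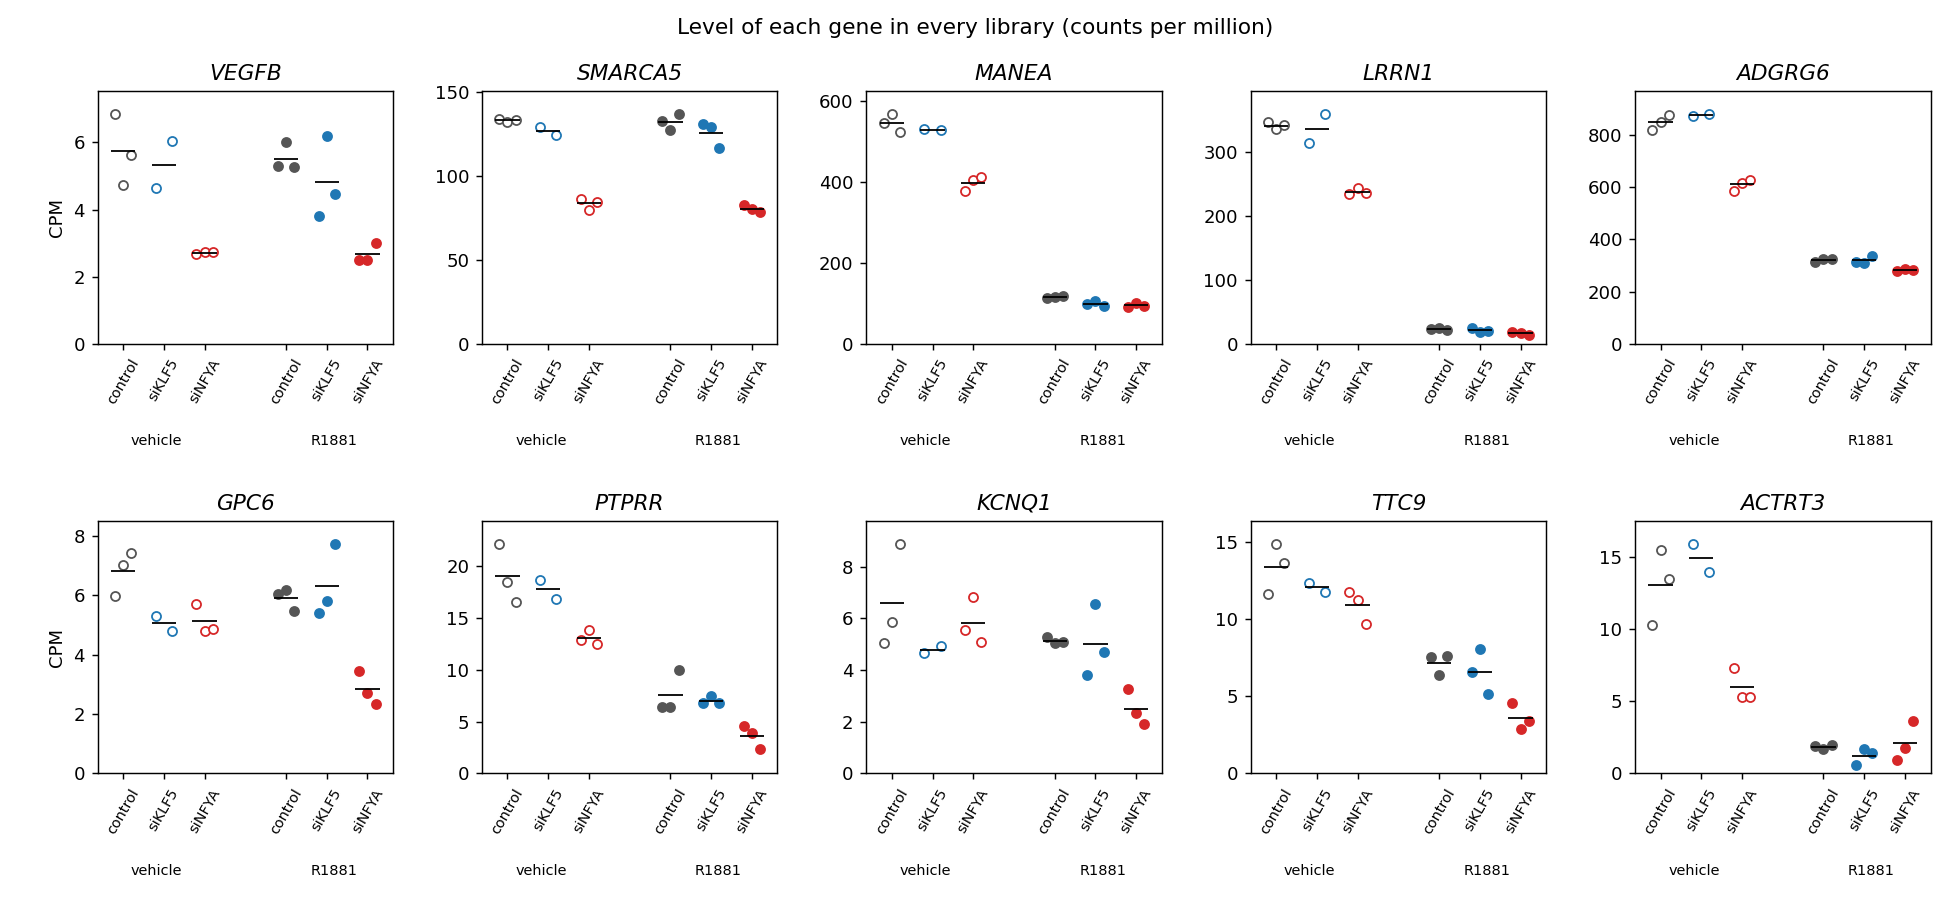
CPM of each of the 10 genes in every library (points; open for vehicle, filled for R1881) with the group mean (line), by siRNA and treatment; each panel starts at 0 and has its own scale. The siNFYA libraries lie under all control libraries in 8 genes in vehicle and 9 in R1881, and MANEA, LRRN1, ADGRG6, PTPRR, TTC9 and ACTRT3 are lower in R1881 than in vehicle under every siRNA.

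VEGFB (ENSG00000173511, chromosome 11, 64234538 to 64238793, plus strand) was measured from few reads. Control vehicle libraries read 6.85, 4.73 and 5.63 CPM and control R1881 libraries 5.28, 6.00 and 5.26 CPM. The siNFYA libraries read 2.68, 2.73 and 2.75 CPM in vehicle and 2.49, 2.51 and 2.99 CPM in R1881. All 6 siNFYA libraries lay below all 6 control libraries, and the siNFYA level was 47.9% of control in vehicle and 48.5% in R1881. The log2 changes were -1.06 ± 0.24 and -1.04 ± 0.25 (SE). Behind them stood 13 to 16 estimated counts in a siNFYA library and 27 to 46 in a control library, and in R1881 the gene did not pass with DESeq2, nor without control R1881 replicate 2 (log2 -0.98) or siNFYA R1881 replicate 2 (-1.003). The siKLF5 libraries, at 4.65 and 6.03 CPM in vehicle and 3.80, 6.18 and 4.45 in R1881, were all above the siNFYA libraries.

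SMARCA5 (ENSG00000153147, chromosome 4, 143513463 to 143557486, plus strand) had replicates that lay close together. It read 133.8, 132.4 and 133.7 CPM in control vehicle and 132.9, 127.7 and 137.1 in control R1881. With siNFYA it read 86.5, 79.9 and 84.8 CPM in vehicle and 82.9, 80.6 and 78.4 in R1881. The 6 siNFYA libraries were lower than every one of the other 11 libraries, whose lowest was 116.9 CPM (siKLF5 R1881). The log2 changes were -0.66 ± 0.05 and -0.71 ± 0.05, leaving 63.1% and 61.2% of the control level. On log2 (TPM + 0.5) the gene did not pass in either treatment by limma, at -0.35 ± 0.16 in vehicle and -0.69 ± 0.16 in R1881. In that unit a retained-intron transcript of 363 bases, ENST00000508573, took 24.6 ± 7.82% of the SMARCA5 level in siNFYA vehicle and 4.69 ± 6.88% in control vehicle, from 0.764% and 0.118% of the gene's counts.

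LRRN1 (ENSG00000175928, chromosome 3, 3799437 to 3847703, plus strand) read 346.2, 335.5 and 342.1 CPM in control vehicle and 234.0, 243.4 and 236.5 in siNFYA vehicle. In R1881, where the gene was far lower, it read 23.6, 24.6 and 21.6 CPM with control siRNA and 18.2, 17.0 and 13.9 with siNFYA. The groups did not overlap in either treatment. The log2 changes with siNFYA were alike, -0.51 ± 0.04 and -0.49 ± 0.11, although the starting levels differed 14.7-fold. In R1881 the gene no longer passed without siNFYA R1881 replicate 3 (-0.40). LRRN1 overlaps SUMF1 on the opposite strand, with 190 shared exon bases of 4264 in LRRN1. The library kit keeps the strand, per the labels, but whether counting used it is not given in the sources used here. SUMF1 did not pass with siNFYA in vehicle (log2 -0.09) or in R1881 (-0.02).

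MANEA (ENSG00000172469, chromosome 6, 95577543 to 95609457, plus strand) read 546.3, 567.5 and 522.5 CPM in control vehicle and 376.8, 403.5 and 412.4 in siNFYA vehicle. The R1881 libraries read 113.4, 114.8 and 117.2 CPM with control siRNA and 91.7, 100.8 and 93.6 with siNFYA. The log2 change was -0.45 ± 0.04 in vehicle and -0.26 ± 0.06 in R1881. In R1881 the siKLF5 libraries, at 98.5, 105.4 and 92.3 CPM, overlapped the siNFYA libraries. ADGRG6 (ENSG00000112414, chromosome 6, 142301854 to 142446266, plus strand) was the most abundant of the 10. It read 821.6, 849.1 and 877.6 CPM in control vehicle and 586.8, 616.4 and 629.3 in siNFYA vehicle, a log2 change of -0.47 ± 0.04. After R1881 it stood at 313.1, 324.4 and 326.0 CPM with control siRNA and 279.8, 287.2 and 281.3 with siNFYA, a change of -0.18 ± 0.04. The groups were apart in both treatments, and the siKLF5 libraries stayed above siNFYA.

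ACTRT3 (ENSG00000184378, chromosome 3, 169766921 to 169769895, minus strand) was lower with siNFYA in vehicle but not in R1881. It read 10.3, 15.5 and 13.5 CPM in control vehicle and 7.32, 5.29 and 5.28 in siNFYA vehicle, with no overlap and a log2 change of -1.12 ± 0.22. In R1881 it read 1.89, 1.69 and 1.95 CPM with control siRNA and 0.957, 1.79 and 3.63 with siNFYA. Those groups overlapped, and the log2 value was 0.18 ± 0.41 from 5 to 17 counts in a siNFYA library. Without siNFYA R1881 replicate 3, the highest of them, that value turned to -0.39.

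The 4 genes with larger differences in R1881 were all low. PTPRR (ENSG00000153233, chromosome 12, 70638073 to 70920843, minus strand) read 22.2, 18.5 and 16.6 CPM in control vehicle and 12.9, 13.8 and 12.5 in siNFYA vehicle (log2 -0.53 ± 0.15). In R1881 it read 6.42, 6.38 and 9.94 CPM with control siRNA and 4.60, 3.95 and 2.35 with siNFYA (-1.03 ± 0.24). The groups did not overlap in either treatment, and in vehicle the gene no longer passed without control vehicle replicate 1 (log2 -0.41) or without siNFYA vehicle replicate 1 (-0.52). In R1881 the same held without control R1881 replicate 3 (-0.79) or without siNFYA R1881 replicate 3 (-0.82). TTC9 (ENSG00000133985, chromosome 14, 70641787 to 70675360, plus strand) read 11.6, 14.9 and 13.6 CPM in control vehicle and 11.8, 11.3 and 9.72 in siNFYA vehicle, which overlapped (-0.28 ± 0.14). With R1881 the values were 7.55, 6.38 and 7.60 CPM with control siRNA and 4.60, 2.87 and 3.42 with siNFYA (-0.97 ± 0.22).

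GPC6 (ENSG00000183098, chromosome 13, 93226842 to 94407401, plus strand) read 5.96, 7.02 and 7.41 CPM in control vehicle and 5.72, 4.78 and 4.86 in siNFYA vehicle (log2 -0.40 ± 0.20). In R1881 it read 6.04, 6.19 and 5.46 CPM with control siRNA and 3.45, 2.69 and 2.35 with siNFYA (-1.04 ± 0.24). In vehicle the siKLF5 libraries, at 5.31 and 4.80 CPM, lay within the siNFYA range, while in R1881 all 3, at 5.40, 5.81 and 7.73, were above it. KCNQ1 (ENSG00000053918, chromosome 11, 2444684 to 2849110, plus strand) read 5.06, 5.88 and 8.89 CPM in control vehicle and 5.54, 6.83 and 5.07 in siNFYA vehicle, with overlap (-0.17 ± 0.22). With R1881 the values were 5.28, 5.06 and 5.07 CPM with control siRNA and 3.26, 2.33 and 1.92 with siNFYA (-1.02 ± 0.29), from 9 to 17 counts. That value did not pass with DESeq2, and of the 6 fits without 1 library it passed only without siNFYA R1881 replicate 1 (-1.25, the others -1.03 to -0.87). In vehicle the value turned to 0.10 without control vehicle replicate 3, the highest library. KCNQ1 holds the antisense gene KCNQ1OT1, whose level was not analysed here.

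Leaving out siNFYA vehicle replicate 3, in which a single ribosomal-RNA-like gene took 2.85% of counts, left the same 7 genes passing in vehicle. Of all genes tested, 1604 passed in that fit. Without 1 library at a time, 6 to 7 of the chosen genes passed in vehicle and 6 to 9 in R1881. Over all genes, 1065 to 1604 passed in vehicle and 402 to 674 in R1881. These fits use the libraries that chose the genes, so continued passing is partly built in. The counts are therefore a description.

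KLF5 knockdown is a second siRNA against a transcription factor, compared with the same control libraries that chose the genes. No gene of the 10 passed for siKLF5 against control in vehicle or in R1881 by edgeR's quasi-likelihood test, where 1.32% and 1.38% of 12733 genes passed in either direction. At an unadjusted p under 0.05 the count was 0 in vehicle, where 12.9% of genes were, and 1 in R1881, MANEA, where 12.5% were. With DESeq2 the counts were 0 and 1. All siKLF5 libraries lay below all control libraries in 3 of the 10 in vehicle and 2 of 10 in R1881. Over all genes 14.3% and 11.6% did so. The median log2 value of the 10 was -0.084 in vehicle and -0.086 in R1881, against -0.0057 and 0.00024 over all genes. The log2 values ran from -0.46 (KCNQ1, SE 0.25) to 0.19 (ACTRT3, SE 0.17) in vehicle and from -0.56 (ACTRT3, SE 0.43) to 0.10 (GPC6, SE 0.21) in R1881. MANEA in R1881 was nearest to passing, at -0.20 ± 0.06 (adjusted p = 0.0768), and it passed with DESeq2 (-0.22, adjusted p = 0.0233) and without a filter on low counts (-0.21, adjusted p = 0.0181). For the abundant genes the errors were small. ADGRG6 stood at 0.05 ± 0.04 in vehicle and 0.01 ± 0.04 in R1881, and SMARCA5 at -0.07 ± 0.05 and -0.06 ± 0.05. For VEGFB, GPC6, KCNQ1 and ACTRT3 the SE was 0.17 to 0.43, which leaves room for sizeable differences that were not detectable at this depth.

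**Figure D2:**
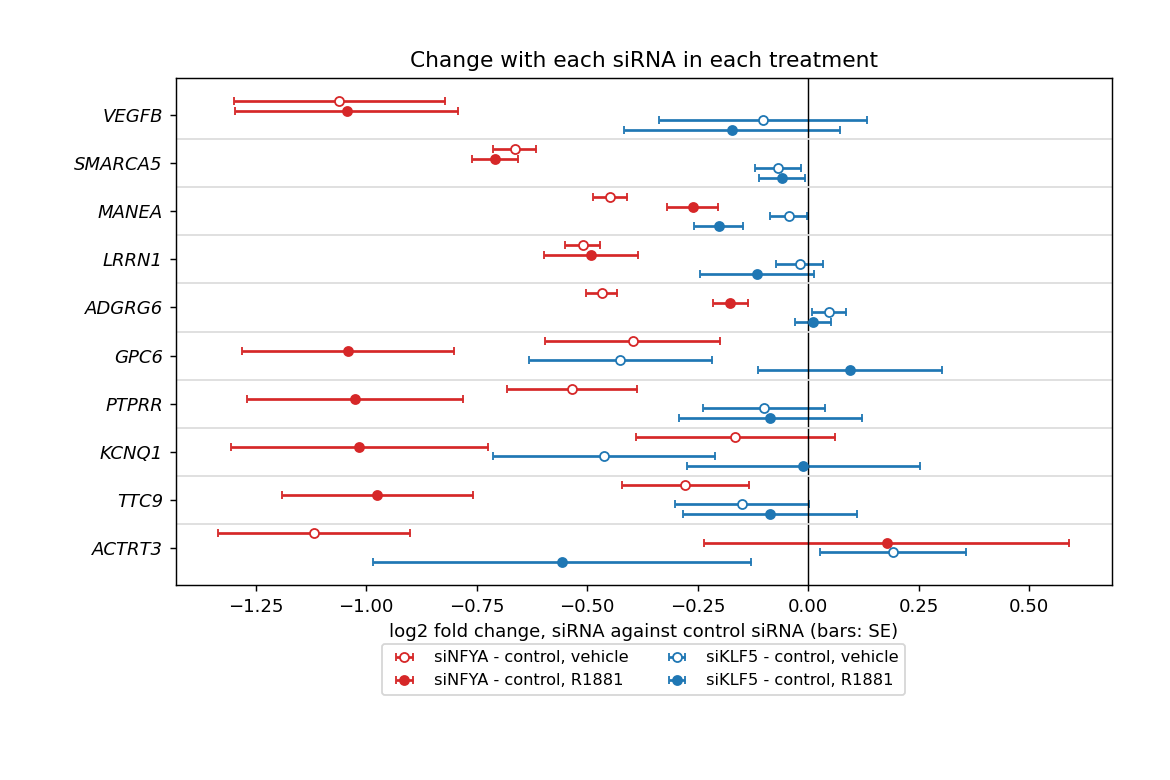
Log2 fold change of each gene against control siRNA (x axis; bars are SE) for siNFYA (red) and siKLF5 (blue) in vehicle (open) and R1881 (filled). Both siRNAs are set against the same control libraries. The siNFYA points run from -1.12 to 0.18 and the siKLF5 points from -0.56 to 0.19.

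The siNFYA libraries were also set directly beside siKLF5, which was not part of the falls that chose the genes. They were all below the siKLF5 libraries in 7 of the 10 genes in vehicle, where 17.4% of genes were. In R1881 they were so in 7 of 10, where 12.2% of genes were. The siNFYA libraries were used to choose the genes, so these counts carry no test. VEGFB, SMARCA5, ADGRG6 and PTPRR were below siKLF5 in both treatments. MANEA, LRRN1 and ACTRT3 were below it in vehicle only, and GPC6, KCNQ1 and TTC9 in R1881 only.

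The response to R1881 in siKLF5 cells was tested, on libraries outside the siNFYA falls that chose the genes. The 10 were named with earlier results of these data known, so their count beside all genes is a description. The control libraries shared the fit and so entered its estimate of the spread. With only the siKLF5 libraries fitted, the same 6 genes passed. Of the 10 genes, 6 fell with R1881 and none rose, where 28.4% of the 12733 genes fell and 30.7% rose. LRRN1 fell the most, from 313.6 and 359.5 CPM in vehicle to 25.4, 18.2 and 20.4 in R1881, a 15.8-fold fall (log2 -3.98 ± 0.08, edgeR quasi-likelihood adjusted p = 2.77e-21). ACTRT3 fell from 15.9 and 14.0 to 0.600, 1.69 and 1.41 CPM (-3.58 ± 0.28, adjusted p = 1.41e-10), with 3 to 9 counts left in a library. MANEA fell from 530.8 and 526.7 to 98.5, 105.4 and 92.3 CPM (-2.42 ± 0.05, adjusted p = 1.93e-21). ADGRG6 fell from 873.3 and 881.1 to 314.4, 310.1 and 338.4 CPM, a 2.74-fold fall (-1.45 ± 0.04, adjusted p = 7.65e-19). In each of these 4 genes the groups were far apart.

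PTPRR fell from 18.7 and 16.9 to 6.80, 7.49 and 6.79 CPM (log2 -1.34 ± 0.18, edgeR quasi-likelihood adjusted p = 9.28e-07), and TTC9 from 12.3 and 11.8 to 6.60, 8.05 and 5.15 CPM (-0.85 ± 0.18, adjusted p = 0.000362). VEGFB (-0.14 ± 0.26), SMARCA5 (-0.01 ± 0.05), KCNQ1 (0.08 ± 0.28) and GPC6 (0.30 ± 0.22) did not pass. These 6 falls passed under every alternative and without each library in turn. Scaling by library totals, which moved the median of all genes to -0.24, added SMARCA5 at -0.25, about the size of that shift.

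**Figure D3:**
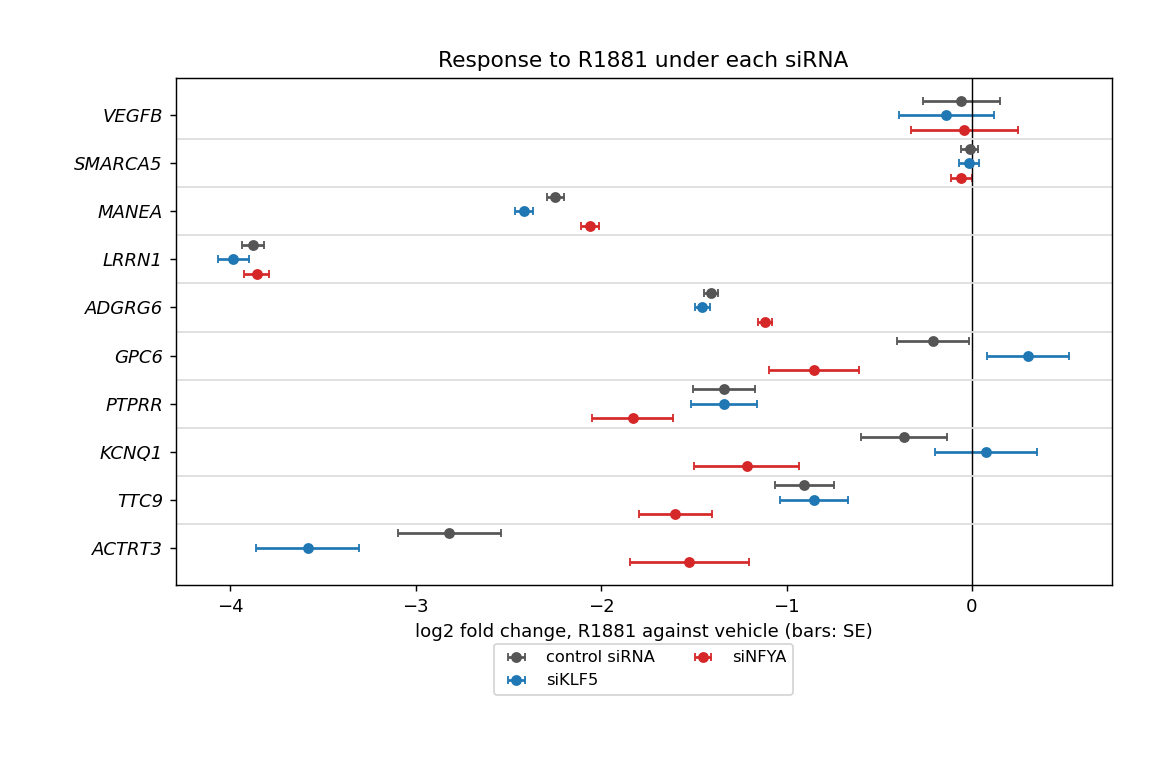
Log2 fold change of each gene with R1881 against vehicle (x axis; bars are SE) under control siRNA (grey), siKLF5 (blue) and siNFYA (red). LRRN1, ACTRT3, MANEA, ADGRG6, PTPRR and TTC9 lie left of -0.8 under all 3 siRNAs, and SMARCA5 and VEGFB lie near 0.

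The same 6 genes were lower with R1881 under control siRNA, whose libraries helped to choose the genes: LRRN1 -3.88, ACTRT3 -2.82, MANEA -2.25, ADGRG6 -1.41, PTPRR -1.34 and TTC9 -0.90 on the log2 scale, where 30.8% of 12601 genes passed in that direction. With library totals SMARCA5, GPC6 and KCNQ1 joined them, and that scaling moved the median of all genes to -0.25. On log2 (TPM + 0.5) GPC6 passed as well, at -0.84 against -0.21 by counts (limma adjusted p = 0.00543). The siKLF5 and control responses were tested against each other by an interaction term, added after the data were seen. No gene of the 10 passed (edgeR adjusted p from 0.689 to 0.994), and 2 of all 12733 genes passed after adjustment. Before adjustment 1 of the 10 (MANEA) was under 0.05, and the share of all genes under it is not given here. Under siNFYA the R1881 values were -3.86 for LRRN1, -2.06 for MANEA, -1.83 for PTPRR, -1.60 for TTC9, -1.53 for ACTRT3, -1.21 for KCNQ1, -1.12 for ADGRG6, -0.85 for GPC6, -0.06 for SMARCA5 and -0.04 for VEGFB. They are given without a test, since they rest on the libraries that chose the genes.

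Levels were compared between genes in TPM, which is per length. In control vehicle the order of mean TPM was ADGRG6 (269 ± 6.72), MANEA (241 ± 11.8), LRRN1 (164 ± 2.67), SMARCA5 (28.5 ± 2.17), PTPRR (12.0 ± 1.89), ACTRT3 (11.4 ± 2.28), VEGFB (10.2 ± 2.52), TTC9 (4.19 ± 0.515), KCNQ1 (3.86 ± 1.31) and GPC6 (2.90 ± 0.508). PTPRR, ACTRT3 and VEGFB did not differ beyond their spread, nor did TTC9 and KCNQ1, or KCNQ1 and GPC6. In control R1881 the order began with ADGRG6 (93.4 ± 2.86), MANEA (43.4 ± 4.58) and SMARCA5 (31.3 ± 5.95), followed by LRRN1 at 9.22 ± 0.750.

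Most of the genes were read through 1 protein-coding transcript. The leading transcript took 99.6% of counts in SMARCA5, 98.8% in LRRN1, 97.1% in GPC6, 96.1% in MANEA and 93.9% in ADGRG6, and TTC9 and ACTRT3 had 1 transcript each in the tables. In TPM these shares were smaller, 66.8% in ADGRG6 and 76.2% in GPC6, because short transcripts with few counts weigh more per length. VEGFB, KCNQ1 and PTPRR were mixed. VEGFB was led by ENST00000309422 (1380 bases, 71.3% of counts), and ENST00000426086 (979 bases), also protein coding, was next.

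Of the 2 VEGFB forms, ENST00000309422 held 27.1, 17.6 and 24.5 estimated counts in control vehicle and 9.96, 9.31 and 4.11 in siNFYA vehicle, while in R1881 it held 21.0, 20.1 and 27.0 with control siRNA and 13.0, 11.4 and 14.0 with siNFYA. ENST00000426086 held 10.5, 14.8 and 9.93 in control vehicle and 5.04, 6.69 and 8.89 in siNFYA vehicle. In R1881 it held 4.18, 11.9 and 0 with control siRNA and was listed at 0 in 3 of 3 siNFYA libraries. These are estimates that divide a few reads between overlapping transcripts, and the control library at 0 shows how far such a split can move.

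PTPRR was led by ENST00000440835 (62.4% of counts over all libraries), whose share ran from 0.000417% to 87.4% between libraries, so that no order of its forms between groups could be read. KCNQ1 was led by ENST00000155840, with 80.6% of counts and a range of 38.4% to 100%. Its mean share was 89.8 ± 7.91% in control vehicle, 65.0 ± 23.8% in siNFYA vehicle, 92.0 ± 7.18% in control R1881 and 70.6 ± 30.9% in siNFYA R1881. Those spreads overlap.

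**Figure D4:**
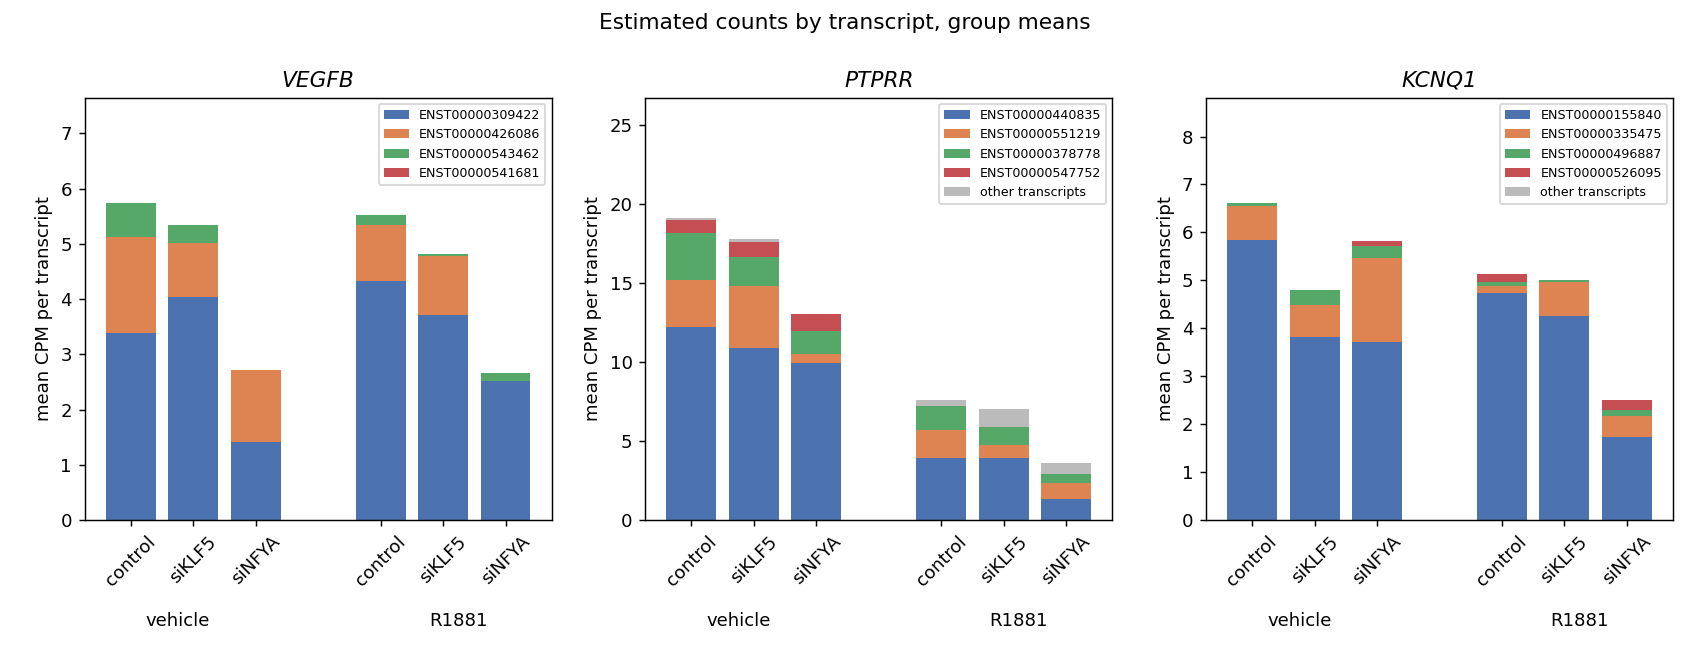
Mean CPM per transcript (stacked bars) in each group for VEGFB, PTPRR and KCNQ1. ENST00000309422, ENST00000440835 and ENST00000155840 lead the 3 genes, and the second VEGFB transcript, ENST00000426086, is absent from the siNFYA R1881 bar.

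The families of the 10 genes were read from lists of related genes, leaving out the 10 themselves. Of 119 such genes tested, 22 (18.5%) passed with siNFYA in vehicle, 9 higher and 13 lower, and 9 (7.56%) in R1881, 1 higher and 8 lower, against 13.5% and 5.96% of all genes. Their log2 changes were small, from 0.12 to 0.51 in size in vehicle and from 0.13 to 0.39 in R1881. Without each library in turn, 4 of the 22 and 2 of the 9 calls held every time, and the genes named next are among them unless stated.

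In the VEGF system, VEGFA, the main angiogenic ligand, rose while VEGFB was lower. VEGFA stood at 47.6 ± 1.65 CPM in control vehicle and rose 1.43-fold with siNFYA (log2 0.51 ± 0.07, edgeR adjusted p = 9.04e-06), and it rose 1.18-fold in R1881 (0.24 ± 0.05, adjusted p = 0.00314). The neuropilin NRP1, a co-receptor that also binds VEGFB, fell in vehicle (-0.37 ± 0.04, adjusted p = 2.84e-06). Its R1881 value of -0.15 (adjusted p = 0.0391) did not pass in 5 of the 6 fits without 1 library. Of the 3 genes of this list that reached the test, the remaining one did not pass. VEGFA was also higher with siKLF5 in R1881 (0.20 ± 0.05, edgeR adjusted p = 0.0287), a call that was not made by DESeq2.

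Of 12 further ISWI subunits and partners of SMARCA5, 1 was higher and 3 lower in vehicle and 1 was lower in R1881. The lower gene in R1881 was BAZ1B, the WSTF subunit, at -0.26 ± 0.05 (adjusted p = 0.000848), a smaller difference than that of SMARCA5. Their median log2 change was -0.013 in vehicle and -0.094 in R1881. Of 16 other N-glycan trimming genes, 2 were higher and 2 lower in vehicle and 1 lower in R1881 (medians 0.025 and -0.038). MANEAL, the nearest relative of MANEA, stood at -0.01 and -0.03 and did not pass.

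Of 21 glypican, syndecan and heparan sulfate genes, 1 was lower in vehicle (median -0.10). In R1881 none passed by edgeR or DESeq2 and 7 had an unadjusted edgeR p under 0.05 (median -0.046). Over all genes 26.7% in vehicle and 19.0% in R1881 had an unadjusted edgeR p under 0.05 with siNFYA. GPC1 (-0.15 and -0.35) and GPC4 (-0.26 and -0.19), glypicans like GPC6, did not pass. Of 10 adhesion G protein-coupled receptors, none passed by edgeR or DESeq2 in vehicle, where 1 had an unadjusted edgeR p under 0.05, and 1 was lower in R1881. ADGRG1 stood at 0.06 and -0.04. Of 6 leucine-rich repeat genes, none passed by edgeR or DESeq2 or had an unadjusted edgeR p under 0.05 in either treatment. Of 9 MAP kinase phosphatases, 1 was lower in vehicle, where 3 had an unadjusted edgeR p under 0.05. In R1881 none passed by edgeR or DESeq2 while 2 had an unadjusted edgeR p under 0.05. The median log2 change of these 9 was above 0, unlike that of PTPRR. It was 0.23 in vehicle and 0.22 in R1881, against -0.0014 and -0.016 over all genes.

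The other KCNQ and KCNE genes (2 tested) and TTC9C, the relative of TTC9 that was tested (0.09 and 0.11), gave no call by edgeR or DESeq2 and no unadjusted edgeR p under 0.05 in either treatment. Of 10 actin-related genes 3 were lower in vehicle. In R1881 none passed by edgeR or DESeq2 while 2 had an unadjusted edgeR p under 0.05, as did 19.0% of all genes. One of the 3 was ACTR3, of the actin-nucleating Arp2/3 complex, at -0.13 (adjusted p = 0.0329), a call that was lost in 5 of the 6 fits without 1 library. In a list of 27 textbook CCAAT-box or NF-Y genes, 5 were higher and 2 lower in vehicle, and 4 were lower in R1881 (medians 0.085 and -0.081). CDK1, the mitotic kinase, was higher in vehicle (0.24 ± 0.05, adjusted p = 0.00108) and lower in R1881 (-0.25 ± 0.07, adjusted p = 0.0225), of which the second call was lost in 4 of the 6 fits without 1 library.

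Genes whose level followed each of the 10 most closely over the 17 libraries were found by the root mean square difference of centred log2 CPM among 10604 or 10605 protein-coding genes. For VEGFB the nearest was SMARCA5, at 0.21, with TPST1 (0.26) and NFYA itself (0.27) next, against a median of 0.50 over all genes searched. For SMARCA5 the nearest were ZBTB20 (0.14) and HNRNPUL1 (0.15), followed by NFYA (0.17). GPC6 was the nearest to KCNQ1 (0.26), and MANEA the nearest to ACTRT3 (0.46). For MANEA, LRRN1 and ADGRG6, whose large R1881 response dominates this measure, the nearest were MMP16 (0.10), SLITRK3 (0.22) and CALD1 (0.10). These distances share libraries, and the siNFYA libraries that chose the 10 genes are among them. NFYA was lower in those libraries by the knockdown, so nearness of the 10 to each other and to NFYA is partly built in. The distances are therefore a description.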

How the data were processed

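LNCaP RNA-seq libraries were studied from the deposited tables alone. Per the submitters' processing notes, FastQC, Trimmomatic, kallisto, DESeq2 and the GRCh38 genome were used, with no versions stated. One pair of tables holds the authors' estimated counts per gene. The other pair joins, per gene and per transcript, the authors' estimated count and TPM with slashes. Rounded counts were scaled by TMM, reduced by filterByExpr and compared by edgeR 4.0.16 (R 4.3.3) with its quasi-likelihood test. Control with siNFYA (12601 genes) and control with siKLF5 (12733 genes) were fitted as 2 separate tables. Adjusted p-values are Benjamini-Hochberg values over all genes of a fit, with a threshold of 0.05. The fits were also run on simulated counts with changes larger than most siNFYA changes given here, so that run does not speak for the smaller ones. The 10 genes and the lists of related genes were chosen with earlier results of these data known. The naming rule took the 10 genes, the NF-Y subunits, KLF5, each gene's closest relatives and up to 4 genes per list passing with siNFYA; giving of the last mainly those that also passed without each library was set after the values were seen, and the text says which named calls were lost. Nothing in the labels says that the samples of a group were separate cultures, and p-values measure only the spread between them. Gene locations follow GENCODE v29 and promoters RefSeq GRCh38.p14. Alternatives were library totals, no filter, all 17 libraries together, only the compared groups, DESeq2 1.42.0, limma 3.58.1 on log2 (TPM + 0.5), and leaving out each library.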

Additional observations from a re-analysis of the deposited data

How the results depend on the processing

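No paired analysis was possible because the labels number the libraries singly, without repeating a number across groups. For siKLF5 against control, 168 genes in vehicle became 409 with no filter, 108 with all 17 libraries, 81 with only the compared groups, 109 with DESeq2 and 2 with limma on TPM, and 70 to 434 without 1 library (434 without siKLF5 vehicle replicate 2). In R1881, 176 genes became 388 with no filter, 314 with only the compared groups and 34 with TPM, and 71 to 108 without 1 library. Of the 10 genes, 1 passed there with no filter and 1 with DESeq2, MANEA both times. For siNFYA, 1696 genes in vehicle became 439 with TPM (4 of the 10 genes) and 1065 to 1604 without 1 library, and 751 in R1881 became 201 with TPM (2 of the 10) and 402 to 674. The values of the 10 genes whose sign turned had not passed. With siNFYA these were KCNQ1 in vehicle (-0.17, TPM 0.23, and 0.10 without control vehicle replicate 3) and ACTRT3 in R1881 (0.18, and -0.39 without siNFYA R1881 replicate 3). With R1881 these were KCNQ1 in siKLF5 (library totals -0.16, TPM -0.49) and SMARCA5 in control (TPM 0.12). With siKLF5 they were KCNQ1 in vehicle (-0.46, TPM 0.018), ADGRG6 in R1881 (DESeq2 -0.00127) and PTPRR in R1881 (TPM 0.033). Without 1 library the R1881 values ran from -0.034 to 0.016 (SMARCA5) and -0.18 to 0.089 (VEGFB) in control, and from -0.19 to 0.25 (KCNQ1), -0.045 to 0.033 (SMARCA5) and -0.38 to 0.055 (VEGFB) in siKLF5. The siKLF5 values ran in R1881 from -0.025 to 0.036 (ADGRG6), -0.058 to 0.19 (GPC6), -0.27 to 0.16 (KCNQ1), -0.27 to 0.00031 (LRRN1), -0.20 to 0.15 (PTPRR) and -0.26 to 0.049 (TTC9), and in vehicle from -0.13 to 0.071 (LRRN1), -0.19 to 0.020 (PTPRR) and -0.31 to 0.070 (VEGFB). As shares of TPM the leading transcripts held 85.4% of SMARCA5, 78.9% of MANEA, 89.5% of LRRN1, 66.8% of ADGRG6 and 76.2% of GPC6. Why counts of genes and log2 values moved between these settings was not tested. Depth limits VEGFB, GPC6, KCNQ1 and ACTRT3, which rest on 3 to 120 counts in a library. It also limits the siNFYA values of PTPRR and TTC9 in R1881, from 11 to 24 and 16 to 24 counts in a siNFYA library.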
